A study of Mus musculus with 2 samples.

Results

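The genes of the *Myc* and Max network were examined in DNase I hypersensitive site sequencing (DHS-seq) of murine M1 cells before and after treatment with interleukin-6 (IL-6). 9 members were taken by gene symbol from the 22605 genes of the deposited table, namely *Myc*, *Mycn*, *Max*, *Mxd1*, *Mxd3*, *Mxd4*, *Mxi1*, *Mnt* and *Mlx*. They occupied 24 transcript rows, and the transcript with the most windows stood for each gene. M1 is a mouse myeloid leukemia line of progenitor character that differentiates toward macrophages when IL-6 is added. The labels give bone marrow as the source and passages 15 to 18 for both libraries. 1 library came from untreated cells and 1 from cells grown with IL-6 for 4 to 5 days, with no dose given, so differences between the libraries are without replicates and no p-value is given. In DHS-seq nuclei are cut lightly with DNase I, which reaches open chromatin first, and the short fragments between a pair of cuts are sequenced. The table gives a mean and an SD over the 700-bp windows that the coding span of a transcript (start to stop codon) touches. Levels below are therefore reads per 700-bp window, and the SD is the spread between windows of 1 gene in 1 library.

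*Myc* and *Mycn* encode transcription factors that bind DNA as dimers with Max, at E-box sequences, and drive genes of growth and ribosome production. The Mxd proteins, Mxi1 and Mnt also dimerize with Max, occupy the same type of site and recruit repressor complexes, whereas Mlx dimerizes with some Mxd proteins, with Mnt and with the glucose-responsive Mondo proteins. In myeloid cells *Myc* is known as a gene of proliferating progenitors, and *Mxd1* as a gene whose expression increases when such cells differentiate. DNase I signal over a coding span measures open chromatin in and around the gene and not its mRNA.

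Over coding spans without mutual overlap (chromosomes 1 to 19 and X), 9042273 reads fell in the untreated library and 8498205 in the IL-6 library, in which the deposited scaling gives each read a weight of 1.04. Of 12 progenitor markers 11 were found, with untreated levels of 4.10 to 53.4 reads per window (median 15.0), and 10 macrophage markers had 2.43 to 129 (median 8.79). 6 lymphoid markers had 4.82 to 10.5 (median 6.81), none of them at 0. The macrophage and the lymphoid median both lay below the median of 9.33 for all genes, and the highest lymphoid marker lay above it. After IL-6 the ranges were 5.45 to 29.5 for progenitor, 2.77 to 26.0 for macrophage and 7.74 to 16.1 for lymphoid markers. Of 5 erythroid markers, *Klf1*, *Epor* and *Gata1* had untreated levels of 51.6, 16.0 and 4.83, and the globin genes *Hba-a1* and *Hbb-b1* had 4 and 9 reads. The median log2 ratio was -0.86 for progenitor, -0.38 for macrophage and 0.47 for lymphoid markers. The part of these marker genes in the results below was not tested.

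With the scaling of the table, 6 of the 9 network genes had DNase I signal at least 2-fold lower in the IL-6 library, and 0 passed that limit upward. Those that were lower included *Myc*, its partner *Max*, and the repressor genes *Mxd3*, *Mnt* and *Mxi1*, as well as *Mlx*. *Mycn* was the member with a ratio above 1. The background was 18472 genes that exceeded 21 reads over the whole coding span in at least 1 library. The study used this number for single sites, so the filter here is a looser one. Signal was 2-fold lower or more in 13.4% of them and 2-fold higher or more in 1.71%. All 9 members passed that filter. With the transcript of fewest windows in place of that with the most, 5 of the 9 were 2-fold lower, since *Mxi1* then gave -0.18. The median log2 ratio of the 9 members was -1.13, beside a median of 0.03 for all genes tested. Set beside genes of similar length and level, as described below, 5 of the 9 lay below the median of their class. So did 9233 of the 18472 genes. The direction depended on the scaling between the libraries. With an alternative scaling on strong single windows (22 reads or more in each library), chosen after seeing the data, every log2 ratio shifts up by 1.83. No member is then 2-fold lower, 3 are 2-fold higher and the median is 0.70, with 84.8% of all genes 2-fold higher and 0.0767% lower.

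The *Myc* gene lies at chr15:61816946-61821929 on the plus strand of NCBIM37. Its 7 windows held 507 reads in untreated cells, a level of 72.4 (SD 68.8), and 155 reads after IL-6, a scaled level of 23.0 (SD 16.5). The untreated level was thus the higher, and the exact Poisson intervals of counting error, 66.3 to 79.0 and 19.5 to 26.9, did not overlap. The ratio was 0.317 (95% interval 0.263 to 0.381) and its log2 -1.65, with IL-6-treated cells as the numerator throughout. This value stood at the 4.27 percentile of all genes tested. *Mycn*, the paralog known from neural and embryonic tissue, lies at chr12:12942902-12948720 on the minus strand. Its 5 windows held 42 reads before and 64 reads after IL-6, levels of 8.40 (SD 3.65) and 13.3 (SD 8.02). It had the lowest level of the 9 genes in untreated cells, below the median of 9.33 for all genes, and a ratio of 1.58 (1.06 to 2.39). The ratio of *Myc* divided by that of *Mycn* was 0.201 (0.127 to 0.315), a quantity that no common scaling factor can move. The spans cover unlike parts of these genes. The *Myc* windows begin 55 bp downstream of the annotated start, those of *Mycn* 1520 bp downstream and without any annotated transcript start. The last 3 windows of *Myc*, also without one, had a ratio of 0.845 (0.525 to 1.35).

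*Max*, which encodes the shared dimer partner, lies at chr12:78038256-78063235 on the minus strand. Its 34 windows held 1350 reads before and 577 after IL-6, levels of 39.7 (SD 139) and 17.6 (SD 29.6). The signal of *Max* was concentrated, since the SD was several times the mean before IL-6. The mean and the SD require that 1 window of untreated cells held at least 571 and at most 828 of the 1350 reads, 42.3% to 61.3% of the gene. In the IL-6 library the strongest window held 64 to 178 of 577 reads, 11.1% to 30.8%. The ratio over the whole span was 0.444 (0.402 to 0.490), a log2 ratio of -1.17. *Mlx*, whose product dimerizes outside the Max branch, lies at chr11:100948591-100953521 on the plus strand. It had 396 and 184 reads over 6 windows, levels of 66.0 (SD 95.1) and 31.8 (SD 18.4), with a ratio of 0.482 (0.403 to 0.576). That made *Mlx* the member with the highest level after IL-6, although its interval overlapped that of *Mnt*.

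The genes of Max-binding repressors did not share one ratio. *Mxd3*, an Mxd gene linked to proliferating cells, lies at chr13:55426529-55431119 on the minus strand and had 512 reads before and 140 after IL-6 over 7 windows. Its levels were 73.1 (SD 79.0) and 20.8 (SD 16.6), and its ratio of 0.284 (0.234 to 0.343) was the lowest of the 9. *Mxd1*, which is associated with differentiated myeloid cells, lies at chr6:86597038-86619153 on the minus strand. It had 467 and 311 reads over 27 windows, levels of 17.3 (SD 18.1) and 11.96 (SD 7.83) and a ratio of 0.691 (0.597 to 0.800). *Mxd4*, at chr5:34516536-34530369 on the minus strand, had 201 and 158 reads over 16 windows, levels of 12.6 (SD 12.3) and 10.3 (SD 4.34). Its ratio of 0.816 (0.658 to 1.01) is the one interval among the members that includes 1. The 3 *Mxd* genes therefore ranged from a log2 ratio of -1.81 to -0.29. The ratio of *Mxd1* divided by that of *Mxd3* was 2.44 (1.91 to 3.11), which no common scaling can move.

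*Mxi1*, an Mxd-type repressor whose alternative first exons give proteins with different N termini, lies at chr19:53384996-53450300 on the plus strand. Its 88 windows held 2274 reads in untreated and 1000 in IL-6-treated cells, levels of 25.8 (SD 63.9) and 11.8 (SD 12.8). The ratio was 0.457 (0.423 to 0.492). *Mnt*, the broadly expressed Max-binding repressor, lies at chr11:74644422-74659227 on the plus strand. With 1446 and 503 reads over 18 windows it had levels of 80.3 (SD 141) and 29.0 (SD 37.0), the highest untreated level of the network. Its ratio of 0.361 (0.326 to 0.400) was close to that of *Myc*. The ratio of *Myc* over that of *Mnt* was 0.879 (0.710 to 1.08), an interval that holds 1, as did that of *Myc* over *Mxd3* with 1.12 (0.855 to 1.46).

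**Figure D1:**
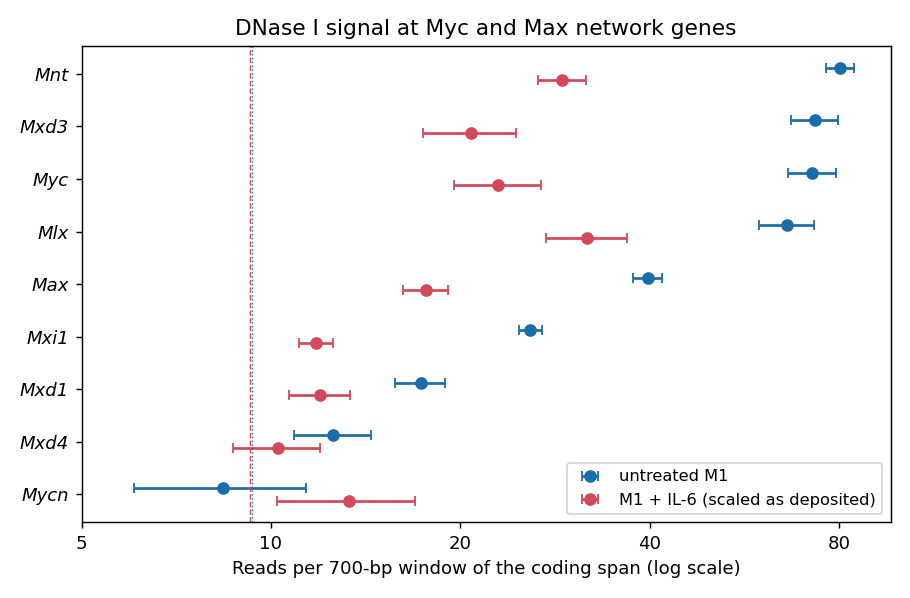
DNase I signal of the 9 genes in reads per 700-bp window (log scale), for untreated M1 cells in blue and IL-6-treated M1 cells in red with the deposited scaling. Points are the mean over the windows of 1 library, bars are 95% exact Poisson intervals of counting error, and vertical lines mark the median of all genes in each library. *Mnt*, *Mxd3*, *Myc* and *Mlx* lie between 66.0 and 80.3 before IL-6 and between 20.8 and 31.8 after it, while *Mycn* moves from 8.40 to 13.3.

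In untreated cells the order of levels was *Mnt*, *Mxd3*, *Myc*, *Mlx*, *Max*, *Mxi1*, *Mxd1*, *Mxd4* and *Mycn*. Neighbors among the first 4 had overlapping intervals, as had *Mxd4* and *Mycn*, whereas each step from *Mlx* down to *Mxd4* exceeded counting error. After IL-6 the order was *Mlx*, *Mnt*, *Myc*, *Mxd3*, *Max*, *Mycn*, *Mxd1*, *Mxi1* and *Mxd4*, and the intervals of all neighbors overlapped. The range of levels over the network narrowed from 8.40 to 80.3 before IL-6 to 10.3 to 31.8 after it. Of the 36 pairs of members, 30 had ratios that differed beyond counting error, including all 8 pairs with *Mycn* and 6 of the 8 pairs with *Myc*. These intervals were not adjusted over the 36 pairs. The share among pairs of other genes was not computed, so whether the count is particular to this network is not known.

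The signal was also more even along most of the 9 genes after IL-6. The SD between windows divided by the mean was lower in the IL-6 library for 8 of the 9 genes. It was 3.51 before and 1.68 after IL-6 for *Max*, 2.47 and 1.09 for *Mxi1*, and 1.44 and 0.578 for *Mlx*. *Mycn* was the exception, with 0.434 and 0.604. A common factor does not change this quantity, but counting error adds more to it where reads are few. The share of all genes with a lower value after IL-6 was not computed, so the count of 8 has no background beside it.

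Listed transcripts that share one end of the span and differ at the other allowed the signal to be placed within *Myc*, *Mlx* and *Mxi1*. In all 3 genes the ratio was lower in the 5′ stretches than in the 3′ part, an order that holds under any common scaling. The 5′ stretches also had the stronger untreated signal. Levels were 71.5 and 160.5 against 14.3 in *Myc*, and 56.4 and 68.3 against 9.46 in *Mxi1*. In *Mlx*, 333 untreated reads fell in the 3 windows of the 5′ part and 63 in those of the 3′ part. Among whole genes the median ratio declined with the level, as described below. Whether position within the gene adds to that relation was not tested. Which end lay nearer to a ratio of 1 depended on the scaling. It was the 3′ end with the deposited values. With the scaling on strong windows, the last *Myc* stretch had a log2 ratio of 1.59 against -0.31 and 0.035 for those before it, the 3′ part of *Mlx* had 2.01 against 0.35, and the 57 windows of *Mxi1* described below had 1.62 against 0.25 and -0.26. Ratios below are with the deposited scaling. The first 2 windows of *Myc*, chr15:61817001-61818400, cover exon 1 and the 5′ part of intron 1 and begin 55 bp downstream of the annotated start. They held 143 reads before and 31 after IL-6, a ratio of 0.225 (0.147 to 0.334). The next 2 windows, chr15:61818401-61819800, hold the end of intron 1 and most of exon 2, and had 321 and 89 reads, a ratio of 0.288 (0.225 to 0.365). The last 3 windows, chr15:61819801-61821900, with the end of exon 2, intron 2 and exon 3, had 43 and 35 reads, a ratio of 0.845 (0.525 to 1.35). The ratio of the first stretch was 0.266 (0.141 to 0.503) of that of the last, and the ratio of the second stretch was 0.341 (0.200 to 0.585) of it, again free of any common factor. The first and second stretches did not differ beyond counting error (0.782, 0.479 to 1.25).

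Whole-number sums and sums of squares fixed the reads of each single *Myc* window, although not their order within a stretch. In untreated cells the first stretch held windows of 93 and 50 reads, the second of 191 and 130, and the last of 16, 14 and 13. In IL-6-treated cells these were 18 and 13, then 50 and 39, then 16, 10 and 9 reads. More than 21 reads after scaling were found in 4 of the 7 windows before IL-6 and in 2 of the 7 after it. Both of the windows that remained above that number belong to the stretch with the start of exon 2.

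In *Mlx* the 3 windows from chr11:100948401-100950500, which hold the annotated start and exons 1 to 5 of the transcript used, had 333 reads before and 115 after IL-6, a ratio of 0.359 (0.287 to 0.444). One of these windows held 252 to 259 of the reads of untreated cells. The 3 windows of the 3′ part, chr11:100950501-100952600, had 63 and 69 reads, a ratio of 1.14 (0.796 to 1.63). The 5′ ratio was 0.315 (0.207 to 0.481) of the 3′ ratio.

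*Mxi1* has annotated starts at its 5′ end and about 19 kb downstream. The stretch between these starts and the stretch with the downstream starts both had more signal than the rest of the gene. The first of these stretches runs from the 5′ start to the edge of the downstream starts. One of its windows held 253 to 591 of its untreated reads, and the place of that window is not known. Signal at the 5′ start itself was therefore not separated. The first 27 windows, chr19:53384801-53403700, held 1522 and 490 reads, levels of 56.4 and 18.8 and a ratio of 0.334 (0.301 to 0.370). The 3 windows with the downstream starts, chr19:53403701-53405800, held 205 and 46 reads, levels of 68.3 and 15.9 and a ratio of 0.233 (0.165 to 0.322). Of the remaining span, the 57 windows of chr19:53405801-53445700 held 539 and 450 reads, levels of 9.46 and 8.20 and a ratio of 0.867 (0.763 to 0.984). The ratio at the downstream starts was 0.269 (0.186 to 0.382) of that in these 57 windows. The ratio of the first stretch was 1.43 times that at the downstream starts (1.02 to 2.05). The shorter *Mnt* transcript, with 10 windows at chr11:74650801-74657800, had a ratio of 0.375 (0.323 to 0.435), and its reads could not be split further.

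**Figure D2:**
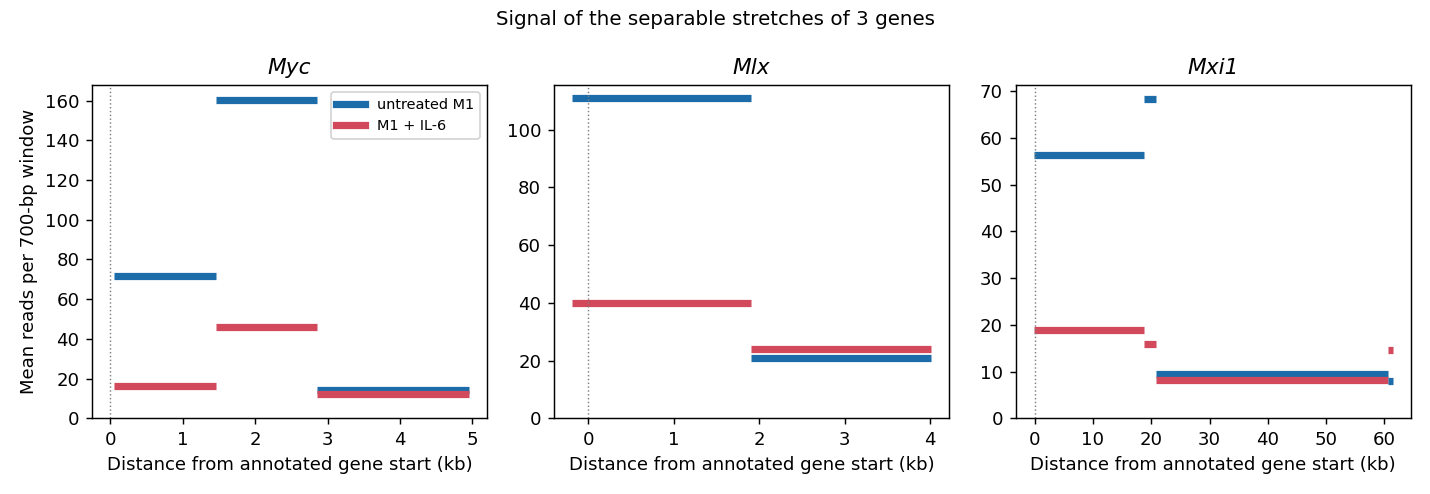
Mean reads per 700-bp window (IL-6 library scaled as deposited) against distance from the annotated gene start in kb, for the separable stretches of *Myc*, *Mlx* and *Mxi1*, with untreated M1 cells in blue and IL-6-treated M1 cells in red. Each bar spans 1 stretch. The 5′ stretches of *Myc* stand at 71.5 and 160.5 before and 16.1 and 46.2 after IL-6, while its last stretch stands at 14.3 and 12.1.

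Promoter sequences were read to show what the 5′ windows of these genes contain. RefSeq (GRCm38.p6) gave 10 promoters of 8 members, not of *Myc*, and the 250 bases before each start were placed on NCBIM37 by exact match. Of these bases, 203 for *Mlx*, all 250 for *Mxd3*, and 195 and 250 for the upstream and downstream *Mxi1* starts lie inside the windows measured above. For *Mnt* and *Mxd4* none do, and these sequences are shown because they hold an E-box, the recognition sequence of Max dimers. Both strands were searched for the E-box CACGTG, the GC box GGGCGG, the CCAAT box CCAAT, the E2F-type sequence GGCGGGAA and the STAT-type sequence TTCCNGGAA. Capitals mark the matches, and the E2F-type match of *Mxd3* overlaps a GC box. Sequences run 5′ to 3′ toward the gene start, with positions on NCBIM37.
Mlx, chr11:100948354-100948603, plus strand: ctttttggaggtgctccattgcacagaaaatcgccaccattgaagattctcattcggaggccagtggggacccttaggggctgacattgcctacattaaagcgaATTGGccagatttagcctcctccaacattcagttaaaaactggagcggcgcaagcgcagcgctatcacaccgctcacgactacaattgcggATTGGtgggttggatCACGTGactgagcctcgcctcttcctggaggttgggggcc
Mnt, chr11:74644176-74644425, plus strand: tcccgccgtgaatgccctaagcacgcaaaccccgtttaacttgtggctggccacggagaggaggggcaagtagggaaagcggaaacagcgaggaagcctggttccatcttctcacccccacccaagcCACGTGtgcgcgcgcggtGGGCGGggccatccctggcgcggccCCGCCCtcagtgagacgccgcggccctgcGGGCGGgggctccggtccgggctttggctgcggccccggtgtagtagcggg
Mxd4, chr5:34530360-34530609, minus strand: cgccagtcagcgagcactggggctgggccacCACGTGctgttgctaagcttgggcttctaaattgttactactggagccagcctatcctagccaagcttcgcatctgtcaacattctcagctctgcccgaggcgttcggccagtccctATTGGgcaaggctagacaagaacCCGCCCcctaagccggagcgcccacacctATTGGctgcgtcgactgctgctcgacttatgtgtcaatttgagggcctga
Mxd3, chr13:55431093-55431342, minus strand: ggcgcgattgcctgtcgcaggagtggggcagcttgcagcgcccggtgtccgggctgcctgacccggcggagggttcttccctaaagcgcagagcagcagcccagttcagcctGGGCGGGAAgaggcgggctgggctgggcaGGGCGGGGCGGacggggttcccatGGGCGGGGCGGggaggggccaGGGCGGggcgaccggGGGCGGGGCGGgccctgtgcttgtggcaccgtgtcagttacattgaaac
Mxi1, chr19:53384746-53384995, plus strand: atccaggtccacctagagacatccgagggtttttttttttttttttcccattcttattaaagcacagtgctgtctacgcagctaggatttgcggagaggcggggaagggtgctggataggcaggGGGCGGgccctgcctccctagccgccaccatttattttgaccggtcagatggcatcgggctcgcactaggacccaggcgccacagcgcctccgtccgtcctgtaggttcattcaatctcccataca
Mxi1, chr19:53403653-53403902, plus strand: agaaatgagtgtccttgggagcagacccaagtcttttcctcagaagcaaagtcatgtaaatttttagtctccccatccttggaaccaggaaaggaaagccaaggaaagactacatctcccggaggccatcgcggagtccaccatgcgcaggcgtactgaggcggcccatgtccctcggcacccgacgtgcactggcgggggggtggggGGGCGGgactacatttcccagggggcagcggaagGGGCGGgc

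The E-box occurred in 3 of the 10 promoters, beginning 40 bases before the start of *Mlx*, 123 before that of *Mnt* and 219 before that of *Mxd4*. Over 32851 RefSeq promoters of the same length, 6.02% held it. GC boxes were found in 8 of the 10 (32.7% of all promoters), with *Mlx* and *Max* the promoters without one. *Mxd3* had 8 of them and also the one E2F-type match (1.86% of all promoters). CCAAT occurred in 3 (33.85%) and the STAT-type sequence in 0 (0.913%). The GC content of the 10 promoters was 53.6% to 78.4%, and the median of all promoters was 52.4%. These matches describe the letters of the sequence and were not tied to the binding of a factor.

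The ratio of a gene in these libraries went with its level, and this bears on the members because most of them had strong signal. Among all genes tested, the median log2 ratio was 0.38 for an average level (the geometric mean of both libraries) under 5 reads per window, 0.17 for 5 to 10, -0.13 for 10 to 20, -0.95 for 20 to 40 and -1.81 for over 40. Each member was therefore also set beside the genes of its own level class and of similar span length. Of the 9 members, 5 lay below the median of their class, as did 9233 of the 18472 genes tested. *Myc*, with -1.65, stood above the median of -1.85 for the 553 genes of its class, at the 69.6 percentile. *Mlx* shared that class and stood at the 91.9 percentile with -1.05. *Mnt* (-1.47) lay near the median of its 60 genes (-1.45), and *Mxd4* (-0.29) near that of its 2578 genes (-0.33). *Mxi1* had the lowest percentile of the 9, with -1.13 against a median of -0.06 and at the 1.77 percentile of 1469 genes, a place that belongs to its longest transcript. *Mxd3* was at the 10.1 percentile of 1079 genes (class median -1.04), *Max* at the 33.3 percentile of 756 and *Mxd1* at the 39.0 percentile of 2578. *Mycn* stood at the 89.2 percentile among 1973 genes with a median of 0.03. *Mxd3* and *Myc* had average levels of 39.0 and 40.8, on either side of the class limit of 40, and their ratios did not differ beyond counting error. Their percentiles refer to classes with unlike medians, -1.04 and -1.85, and cannot be compared directly. These comparisons were added after seeing the data, and the causes of the relation between level and ratio were not tested.

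**Figure D3:**
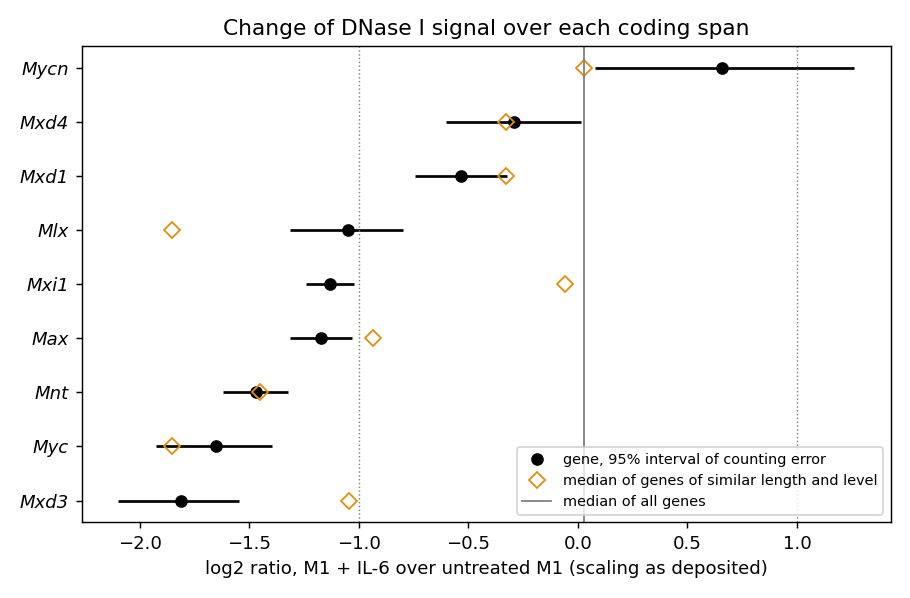
log2 ratio of DNase I signal, IL-6-treated over untreated M1 cells with the deposited scaling, for the 9 genes (black points, bars are 95% intervals of counting error). Open diamonds give the median of genes of similar span length and level, the solid line the median of all genes (0.03) and dotted lines a 2-fold difference. *Mxi1* (-1.13) lies far from its diamond (-0.06) on the lower side and *Mlx* (-1.05) from its diamond (-1.85) on the upper side.

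On chromosome 15, *Myc* was among the genes with strong signal and low ratios. Its untreated level of 72.4 was 4.79 times the median of the chromosome and stood at the 94.9 percentile of the 747 other genes tested there, with 38 of them above it. After IL-6 its level of 23.0 was 1.51 times the median, at the 83.8 percentile, with 121 genes above it. For the log2 ratio *Myc* stood at the 4.42 percentile, and 33 genes of the chromosome were lower. A 2-fold lower signal was found for 104 of the 747 genes (13.9%) and a 2-fold higher one for 8, near the shares over all genes. Of the 57 genes of the chromosome with at most 10 windows and an untreated level of at least 40, the median log2 ratio was -1.56, and 26 were lower than *Myc*.

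Chromosome 15 itself had the highest median level of the 19 autosomes in both libraries. The median was 15.1 reads per window in untreated and 15.3 in IL-6-treated cells, against 9.33 and 9.34 for the 17199 genes of the other autosomes, or 1.62 and 1.63 times as high. The median log2 ratio was -0.03 on chromosome 15 and 0.03 on the others. By medians, the higher level of chromosome 15 was thus present in both libraries alike. By total reads over total windows it was 1.46 times that of the other autosomes in untreated cells and 1.34 times after IL-6. By that measure chromosome 9 was the higher after IL-6, with 10.5 reads per window against 10.1. Relative to the median of its own chromosome the untreated level was 10.3 for *Mxd3*, 6.94 for *Mnt*, 5.70 for *Mlx* and 4.79 for *Myc*, so that *Mlx* passed *Myc* in this order. The factors for *Max*, *Mxi1*, *Mxd1*, *Mxd4* and *Mycn* were 3.54, 2.58, 2.27, 1.27 and 0.749.

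Noncoding genes near *Myc* were not examined. Of the listed coding genes, the 3 nearest to *Myc* on either side are 1.06 to 1.97 Mb away. Their untreated levels were 5.00 to 14.0 reads per window, all under that of *Myc*, and 5 of the 6 ratios had intervals that include 1. The exception was *A1bg*, with 65 reads before and 102 after IL-6 and a ratio of 1.63 (1.18 to 2.26). *Fam84b*, the nearest but one, had levels of 14.0 and 16.6, *4933412E24Rik* of 8.67 and 9.69. On the other side *Gsdmc*, *Gsdmc2* and *Gsdmcl1*, members of a multigene family that can share reads, had levels of 5.00 and 4.91, 5.35 and 5.74, and 6.25 and 10.1. The coding genes with levels most like those of *Myc* in both libraries, among 2467 genes within 2 windows of its length, were *Mfsd10*, *Bbs10* and *Stk16*. They had 72.2, 72.4 and 73.4 reads per window before IL-6 and 23.0, 22.8 and 23.3 after it. This likeness rests on 2 libraries.

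**Figure D4:**
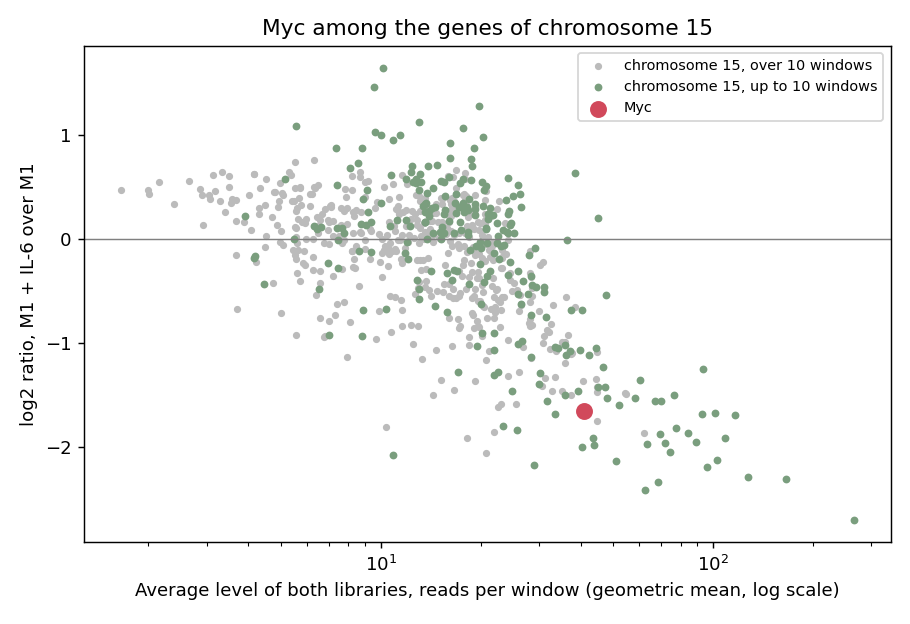
log2 ratio (IL-6-treated over untreated M1 cells, deposited scaling) against the average level of both libraries (geometric mean, reads per 700-bp window, log scale) for the genes of chromosome 15. Green points are genes of up to 10 windows, grey points longer genes, and the red point is *Myc* at -1.65. Ratios decline with the level, and 33 of the 747 other genes are lower than *Myc*.

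The remaining dimer partners of the network had ratios nearer to 1 than *Myc* or *Max*, and also lower levels. Untreated levels were 14.1 for *Mlxip*, 23.7 for *Mlxipl*, 2.69 for *Mga* and 5.67 for *Mycl1*, against 72.4 for *Myc* and 39.7 for *Max*. The ratio went with the level among all genes, and whether these partners depart from that relation was not tested. *Mlxip* and *Mlxipl*, which encode the Mondo partners of Mlx, had 1202 and 1066 reads in untreated and 959 and 914 in IL-6-treated cells, log2 ratios of -0.27 and -0.17. *Mga*, which encodes a Max partner with an additional T-box domain, had 242 and 262 reads (0.17). *Mycl1*, another *Myc* paralog, had 34 and 36 reads, a ratio of 1.10 (0.669 to 1.81). Of the 28 listed genes that encode partners, cofactors and regulators of Myc, 3 were 2-fold lower or more (10.7%, beside 13.4% of all genes) and 0 were 2-fold higher (1.71% of all genes), and the median log2 ratio was -0.13. The 3 were *Pim1*, a kinase gene that responds to cytokines (211 and 74 reads, -1.45), *Cdk9*, the kinase of transcription elongation (156 and 61 reads, -1.29), and *Mycbp*, which encodes a Myc-binding protein (156 and 65 reads, -1.20).

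Genes known as targets of Myc, many of them of ribosome production and translation, had log2 ratios mostly below 0. Of 34 listed, 16 were 2-fold lower or more (47.1%, beside 13.4% of all genes) and 0 were 2-fold higher (1.71% of all genes). Their median log2 ratio was -0.96, and 30 of the 34 lay below 0, as did 8922 of the 18472 genes tested. The lowest were *Apex1*, a DNA repair endonuclease, with 566 and 121 reads (-2.17), *Eif4a1*, a translation initiation helicase, with 521 and 116 (-2.11), and *Gnl3*, a nucleolar GTPase, with 390 and 104 (-1.85). *Nop56*, of the box C/D ribonucleoproteins, had 272 and 79 reads (-1.72), *Ncl*, which encodes nucleolin, 338 and 101 (-1.68), and *Srm*, the spermidine synthase gene, 248 and 74 (-1.68). Relative to genes of similar length and level, 27 of the 34 lay below the median of their class, as did 9233 of the 18472 genes tested. For the partner genes this was 17 of 28. With the scaling by single strong windows, 0 of the 34 were 2-fold lower and 15 were 2-fold higher, where 84.8% of all genes were 2-fold higher. *Odc1*, the ornithine decarboxylase gene and a long-known target, was named after its values were seen and had 68 and 72 reads (0.14).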

How the data were processed

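DHS-seq of 1 untreated and 1 IL-6-treated M1 library was analyzed. Groups were taken from the IL-6 characteristic and the title of each sample, because the labels repeat the IL-6 treatment text on both. The authors trimmed the reads, aligned them to NCBIM37 (mm9) with BWA and made the deposited signal values with Seqmonk (versions not given in the sources used here). Their text describes single-read sequencing in one place and paired-end in another. The deposited signal is a mean and SD over 700-bp windows of each coding span (55432 rows), and 1 column without values was not used. Multiplied by the number of windows, the means were whole multiples of 1.00 and 1.038163 within 0.05 in all rows, which gave the reads. Nothing in the sources used here names the second factor, which was kept as the scaling. No test across libraries was possible. Ratios have 95% Clopper-Pearson intervals, ratios of ratios conditional exact intervals, levels exact Poisson intervals, all of counting error only. Reads are not counted as molecules, so duplicates by PCR would make these intervals too narrow. Before the log2 ratio, 0.5 reads were added to either library. Exons are from GENCODE M1. The recovery was tested on simulated data. The genes and lists were chosen with earlier results of these data known. Genes named are the 9 members, the partner and target genes past 2-fold (at most 6 of each, largest first) with *Mga*, *Mlxip*, *Mlxipl* and *Mycl1*, the 3 nearest genes on each side of *Myc*, and the 3 genes most like it. *Odc1* and the erythroid markers are named in addition, outside that rule. Alternatives covered scaling, reads added, transcript, fold, filter and genes compared. Python 3.11.15 with numpy 2.4.6, pandas 2.3.3, scipy 1.17.1 and matplotlib 3.10.9 was used.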

Additional observations from a re-analysis of the deposited data

How the results depend on the processing

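Under other settings 167 values were recomputed for 31 results, of which 132 kept their direction and size, 24 moved and 11 were reversed. All 26 values with the scaling added after seeing the data moved or were reversed, and 9 of the other 141 moved. At a 1.5-fold limit 1 member was higher, and 6 partner and 22 target genes were lower. With the median of ratios over genes 5 partner and 17 target genes were 2-fold lower. The transcript with the fewest windows gave -0.18 for *Mxi1* and -1.48 for *Mlx*, left 5 members 2-fold lower, and put *Myc* at the 98.9 percentile of untreated level on chromosome 15. Among genes of at most 10 windows *Myc* stood at the 87.3 percentile of level and the 10.8 percentile of the log2 ratio. Total reads over total windows gave a log2 difference of -0.13 between chromosome 15 and the other autosomes.

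The scaling that changed directions was the median of ratios over 544 strong single windows (22 reads or more in each library), added after seeing the data. It gave 0 members lower and 3 higher, a median of 0.70, and log2 ratios of 0.17 for *Myc*, 0.65 for *Max*, 0.013 for *Mxd3*, 0.70 for *Mxi1*, 0.36 for *Mnt* and 0.78 for *Mlx*. The 3 *Myc* stretches were at -0.31, 0.035 and 1.59, those of *Mxi1* at 0.25, -0.26, 1.62 and 2.65, those of *Mlx* at 0.35 and 2.01, and the shorter *Mnt* transcript at 0.41. Partner genes were 0 lower and 23 higher, target genes 0 lower and 15 higher. By construction this scaling sets the median strong window to no difference, and 17687 of 20848 genes are then 2-fold higher. Which scaling is right was not tested. Comparisons of ratios between genes or stretches are free of it.

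No paired analysis was possible because there was 1 library per condition. For the same reason no replicate was left out. The *Mycn* level rests on 42 and 64 reads, and the last *Myc* stretch on 43 and 35, so differences there within the intervals given were not detectable at this depth. Signal outside coding spans, including the *Mnt*, *Mxd4* and *Mycn* promoters, is not analyzed here.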
